A study of Homo sapiens with 9 samples.

Results

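Transcripts of cyclins, cyclin-dependent kinases (CDKs), their regulators and the E2F and RB proteins that they act on were measured in SMS-KCNR cells, a line established from a human neuroblastoma. All arrays were from a single time, 30 hours of treatment. The members were all genes of the array's probe annotation whose symbols name a cyclin, a CDK or CDK-like kinase, a CDK inhibitor, a CDC25 phosphatase, the kinases WEE1 or PKMYT1, an E2F factor, its dimer partner TFDP, or RB1 and its relatives RBL1 and RBL2. These symbols gave 69 genes on 71 probesets, out of 14884 named genes tested and 53617 probesets in all. A gene with more than 1 probeset is given by its brightest, judged by the mean of the 9 arrays.

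The cells were grown in serum-containing medium and treated with the solvent DMSO, with 5 µM simvastatin, or with 5 µM simvastatin plus 2 mM mevalonate. Simvastatin blocks the enzyme that makes mevalonate, and mevalonate given together with the drug supplies its product from outside. Each of the 3 groups had 3 arrays of total RNA, described in the series as independent samples. Nothing says whether they came from separate cultures grown on separate days, so p-values measure the spread between these samples, which may be technical. The cells are 1 line, and no group received mevalonate without the drug.

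Cyclins are the regulatory subunits that switch on CDKs, and their levels rise and fall through the cell cycle. In G1, D-type cyclins with CDK4 or CDK6, and then cyclin E with CDK2, phosphorylate RB1 and its relatives, which releases E2F-TFDP dimers to activate genes of DNA replication. Cyclin A acts through S phase and G2, and cyclin B with CDK1 drives entry into mitosis. WEE1 and PKMYT1 hold CDKs in check by phosphorylating them, and CDC25 phosphatases remove those phosphates. Many genes of G2 and mitosis are held down in resting and G1 cells by a complex of RBL1 or RBL2 with E2F and MuvB proteins, called DREAM. Neuroblastoma cells are known for active cyclin D and CDK4/6 signalling.

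The arrays gave log2 values, so a difference of 1 is a doubling. A gene is said to have risen, fallen or changed where limma's test across all 14884 genes gave an adjusted p under 0.05. Across genes, the correlation was 0.994 to 0.996 between arrays within a group and 0.990 to 0.992 between DMSO and simvastatin arrays. The median of all probesets was 5.18, and 55 of the 69 members had a mean above it. Identical values on 2 or more arrays occurred in 35 of the 69 members (50.7%) and in 57.4% of all genes. Of 8 noradrenergic markers of neuroblastoma cells, 7 were measured and all 7 lay above 5.18, with a mean per array of 10.13 to 10.15 in DMSO. That mean was 9.69 to 9.70 with simvastatin and 10.07 to 10.13 with mevalonate added, and 5 of the 7 markers fell with the drug. Of the Schwann, mesenchymal and blood or endothelial markers 10 were measured, and of these SNAI2 and CD68 rose with simvastatin and FN1 fell. The mesenchymal markers measured also lay above 5.18, from 5.49 (PRRX1) to 10.92 (SNAI2), so that mark does not set the noradrenergic markers apart. SNAI2 was above the highest noradrenergic marker, HAND2 (10.80). The mesenchymal mean was 7.30 to 7.42 and the Schwann mean 5.19 to 5.43 over all arrays, and that of CD68 and PECAM1 was 5.46 to 5.75 with DMSO, 5.76 to 6.05 with simvastatin and 5.75 to 5.85 with mevalonate added. The part of these markers in the results below was not tested.

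To determine what simvastatin changed, its arrays were compared with DMSO. Of the 69 members 19 changed (27.5%), 12 downward and 7 upward, with sizes from 0.19 to 0.84 on the log2 scale. Over all genes tested 13.4% changed, 7.38% downward and 5.98% upward. The median change of the members was -0.02, against 0.01 for all genes, and the median size of change without its sign was 0.11 against 0.10. The test was not passed by 50 members. Of the 10 measured G2/M members 7 fell and 0 rose (median -0.35), with 2 of the other 3 at an unadjusted p under 0.05. Of the 20 measured G1/S members 3 rose and 1 fell (median -0.03). Both stage lists were chosen with earlier results of these data known, so these counts describe the lists and are not a test of them. The groups did not overlap in 35 of the 69 members, against 28.6% of all genes. Members that rose numbered 3 with all probesets tested, 4 with only the 6 arrays compared and 11 with eBayes trend and robust settings. In bulk RNA, fewer cells in a phase of the cycle and less transcript per cell cannot be told apart.

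The B-type cyclins, partners of CDK1 at entry into mitosis, showed the largest changes of the family. CCNB1 stood at 9.12, 9.20 and 9.11 on the DMSO arrays, at 8.31, 8.34 and 8.25 with simvastatin and at 9.10, 9.04 and 9.14 with mevalonate added. Every simvastatin array was lower than every other array, and the DMSO and mevalonate arrays overlapped. CCNB1 was 1.79-fold lower with simvastatin than with DMSO (log2 change -0.84 ± 0.05 SE, limma adjusted p = 2.31e-05). CCNB2, the second mitotic B-type cyclin, stood at 9.53, 9.51 and 9.51 with DMSO, at 8.72, 8.72 and 8.69 with simvastatin and at 9.31, 9.29 and 9.24 with mevalonate. Here the 3 groups were all apart, with the mevalonate arrays between the others. Its fall was 1.75-fold (-0.81 ± 0.04, adjusted p = 1.11e-05).

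CCNA2, the cyclin of S phase and G2, stood at 10.78, 10.77 and 10.79 with DMSO, at 10.35, 10.32 and 10.27 with simvastatin and at 10.63, 10.64 and 10.64 with mevalonate. It fell by 0.47 ± 0.04 (adjusted p = 0.000118), and its 3 groups were also apart. CDK1, the kinase that these cyclins activate, stood at 9.51, 9.48 and 9.54, then at 9.15, 9.17 and 9.05, then at 9.43, 9.32 and 9.44 in the same order of groups. It was 1.31-fold lower with simvastatin (-0.39 ± 0.05, adjusted p = 0.00136). CDKN3, a phosphatase that acts on CDKs, stood at 9.72, 9.79 and 9.75 with DMSO, at 9.32, 9.32 and 9.16 with simvastatin and at 9.68, 9.70 and 9.68 with mevalonate. It fell 1.40-fold (-0.49 ± 0.05, adjusted p = 0.000486), and all its mevalonate arrays lay above all its simvastatin arrays.

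The remaining G2/M cyclins did not pass the test. CCNF, the F-box cyclin of a ubiquitin ligase, stood at 8.06, 7.95 and 8.14 with DMSO, at 7.95, 7.92 and 7.72 with simvastatin and at 7.97, 8.01 and 7.91 with mevalonate (-0.19 ± 0.07, adjusted p = 0.155). CCNB3, a cyclin best known from meiosis, had a mean of only 4.16 and stood at 4.09, 4.20 and 3.92, then at 4.27, 4.32 and 4.46, then at 3.87, 4.22 and 4.09. Its simvastatin arrays were the highest of the 9 (0.28 ± 0.10, adjusted p = 0.126), a direction opposite to that of CCNB1 and CCNB2 in a gene below the median of all probesets.

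The enzymes that add and remove the inhibitory phosphates on CDKs differed by member. CDC25B, a phosphatase that activates CDK1, stood at 9.34, 9.26 and 9.40 with DMSO, at 9.01, 9.04 and 9.02 with simvastatin and at 9.20, 9.27 and 9.20 with mevalonate. It fell by 0.31 ± 0.05 (adjusted p = 0.00273). CDC25C, its mitotic relative, stood at 7.46, 7.39 and 7.61, then at 7.13, 7.32 and 7.08, then at 7.32, 7.37 and 7.23. The simvastatin and mevalonate arrays of CDC25C overlapped. Its fall of 0.31 ± 0.08 had an adjusted p of 0.0383 and no longer passed when DMSO replicate 1 (0.0865) or 3 (0.118), simvastatin replicate 1 (0.104) or 3 (0.115), or any 1 mevalonate array (0.0522 to 0.0640) was left out. It was also lost with only the 6 arrays compared in the fit (0.0904) and with all probesets tested (0.0994). WEE1, the nuclear kinase that restrains CDK1, stood at 10.07, 10.02 and 10.06, then at 9.91, 9.96 and 10.02, then at 10.04, 10.02 and 10.06, and its groups overlapped (-0.09 ± 0.04, adjusted p = 0.251).

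**Figure D1:**
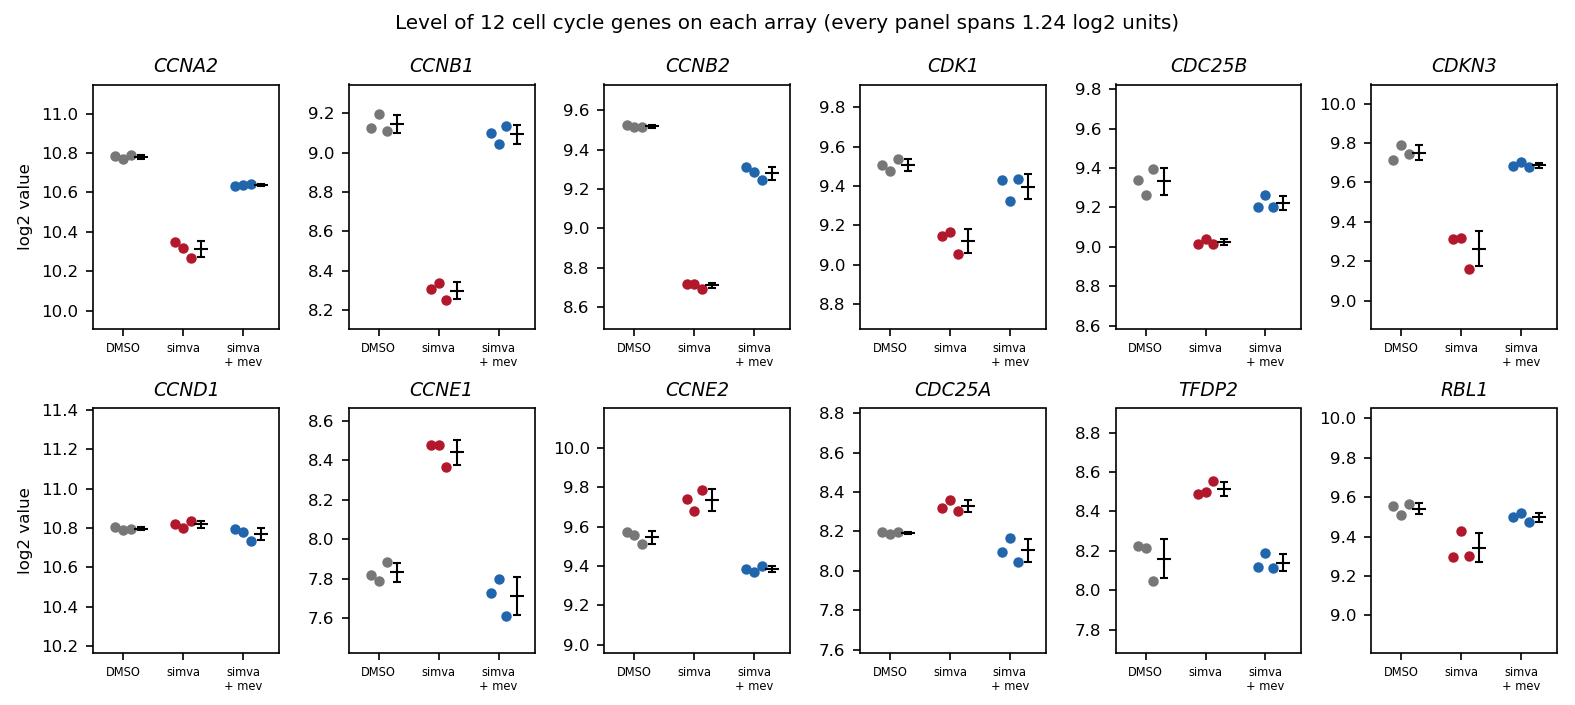
Log2 value of 12 genes on each of the 9 arrays (coloured points; simva is simvastatin and simva + mev is simvastatin plus mevalonate), with the mean and SD of each group of 3 in black; each panel has its own vertical axis of the same span. CCNB1 dropped from 9.11 or more to 8.34 or less with simvastatin and stood at 9.04 or more with mevalonate, CCNE1 moved the opposite way, and CCND1 lay between 10.74 and 10.84 on all arrays.

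The starts of the G2/M genes were looked up because their transcripts moved together. Promoter windows of 300 bases (250 before the start and 50 after it) came from RefSeq (GRCh38.p14) and matched 60 of the 69 members by symbol; where a symbol had several windows, the first listed was used. They were searched on both strands for CCAAT, the core of the NF-Y box, for TTTGAA, the core of the CHR element that MuvB complexes bind, and for the E2F motifs TTTCCCGC, TTTCGCGC, TTTGCCGC and TTTGGCGC. No motif's letters contain another's. CCAAT was found in 6 of 9 G2/M windows (66.7%) and in 35.7% of 27305 windows, 1 for each symbol in the table. TTTGAA was found in 4 of 9 (44.4%) and in 15.4% of all windows, and an E2F motif in 1 of 9 (11.1%) and in 3.33% of all. By call with simvastatin, CCAAT was found in the windows of 7 of 12 members that fell, 3 of 5 that rose and 15 of 43 not called. TTTGAA was found in 4, 1 and 5 of these windows in the same order, and an E2F motif in 3, 0 and 8. A match describes the letters only. Variants of these letters were not searched for, so a window without a match can still hold a variant of the element. The last 220 bases before the start of the 4 genes with the largest falls are printed here, 5′ to 3′ on the gene's strand, with motif letters in capitals (ATTGG and TTCAAA are CCAAT and TTTGAA read on the other strand).
CCNB1, chr5:69166930-69167149, plus strand: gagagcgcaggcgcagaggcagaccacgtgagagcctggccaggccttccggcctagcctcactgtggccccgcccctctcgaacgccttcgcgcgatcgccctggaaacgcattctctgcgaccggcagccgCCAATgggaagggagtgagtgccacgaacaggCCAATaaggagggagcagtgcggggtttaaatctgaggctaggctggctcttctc
CCNB2, chr15:59104926-59105145, plus strand: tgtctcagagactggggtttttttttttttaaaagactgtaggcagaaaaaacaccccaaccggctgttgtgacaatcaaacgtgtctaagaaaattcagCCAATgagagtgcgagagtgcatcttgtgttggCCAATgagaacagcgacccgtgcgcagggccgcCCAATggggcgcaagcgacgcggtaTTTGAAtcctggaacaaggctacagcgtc
CCNA2, chr4:121823884-121824103, minus strand: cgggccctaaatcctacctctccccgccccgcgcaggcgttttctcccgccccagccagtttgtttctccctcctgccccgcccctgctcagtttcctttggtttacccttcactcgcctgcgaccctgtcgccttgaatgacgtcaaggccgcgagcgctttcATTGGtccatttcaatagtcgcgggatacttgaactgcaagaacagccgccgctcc
CDKN3, chr14:54396787-54397006, plus strand: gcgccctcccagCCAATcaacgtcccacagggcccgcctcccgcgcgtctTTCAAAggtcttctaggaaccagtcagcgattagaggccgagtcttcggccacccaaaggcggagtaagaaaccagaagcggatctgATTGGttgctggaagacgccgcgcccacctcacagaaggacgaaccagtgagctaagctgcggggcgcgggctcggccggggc
In CCNB1 the CCAAT boxes began 87 and 55 bases before the start, and in CCNB2 boxes began 120, 87 and 54 bases before it, with TTTGAA 29 bases before it. The other G2/M matches to TTTGAA lay 161 bases before the start in CDK1, 170 in CDKN3 and 85 in CCNF, which did not pass the test.

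The cyclins of G1 and of entry into S phase behaved differently from the mitotic ones. CCNE1, which encodes cyclin E1 and activates CDK2, stood at 7.82, 7.79 and 7.89 with DMSO, at 8.48, 8.48 and 8.37 with simvastatin and at 7.73, 7.80 and 7.61 with mevalonate. All simvastatin arrays lay above all others, and the DMSO and mevalonate arrays overlapped. CCNE1 rose 1.53-fold (0.61 ± 0.06, adjusted p = 0.000324), the largest rise in the family. CCNE2, its close relative, stood at 9.57, 9.56 and 9.51, then at 9.74, 9.68 and 9.79, then at 9.39, 9.37 and 9.40, with the 3 groups apart and the mevalonate arrays the lowest. Its rise with simvastatin was 1.14-fold (0.19 ± 0.04, adjusted p = 0.0209). Its adjusted p passed 0.05 when DMSO replicate 2 (0.0550) or 3 (0.0743) or simvastatin replicate 1 (0.0521) or 3 (0.0604) was left out, with only the 6 arrays compared (0.0600), and with all probesets tested (0.0842).

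The D-type cyclins, which respond to growth signals, did not pass the test. CCND1 stood at 10.81, 10.79 and 10.79 with DMSO, at 10.82, 10.80 and 10.84 with simvastatin and at 10.79, 10.78 and 10.74 with mevalonate. The DMSO and simvastatin arrays overlapped, and the 95% interval of the log2 change ran from -0.06 to 0.10. CCND3 stood at 6.52, 6.47 and 6.52, then at 6.72, 6.55 and 6.58, then at 6.52, 6.47 and 6.52 (0.11 ± 0.05, adjusted p = 0.211). CCND2 lay below the median of all probesets, at 4.85 to 5.30 over the 9 arrays with groups that overlapped (-0.15 ± 0.11, adjusted p = 0.445), and its dimmer probeset gave 0.05 ± 0.05.

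None of the CDKs of G1 passed the test. CDK4, a partner of D-type cyclins, stood at 10.04, 10.07 and 10.09 with DMSO, at 10.04, 10.03 and 10.03 with simvastatin and at 10.04, 10.04 and 10.03 with mevalonate, and the interval of its change ran from -0.12 to 0.05. CDK6, the other partner, stood at 9.95, 9.91 and 10.04, then at 9.97, 9.91 and 9.90, then at 9.91, 9.85 and 9.82 (interval -0.15 to 0.07). CDK2, the partner of cyclins E and A, stood at 8.46, 8.54 and 8.52, then at 8.29, 8.42 and 8.34, then at 8.38, 8.51 and 8.44. Its simvastatin arrays lay below its DMSO arrays (-0.16 ± 0.05, adjusted p = 0.0966), and the difference passed with eBayes trend and robust settings (0.0371).

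CDC25A, the phosphatase that activates CDK2 at entry into S phase, stood at 8.20, 8.19 and 8.20 with DMSO, at 8.32, 8.36 and 8.31 with simvastatin and at 8.10, 8.17 and 8.05 with mevalonate. The 3 groups were apart and in the same order as for CCNE2, but the difference between simvastatin and DMSO did not pass the test (0.14 ± 0.04, adjusted p = 0.0788). It did so with quantile normalization (0.17, adjusted p = 0.0258), with only genes above the median of all probesets (0.0382) and with eBayes trend and robust settings (0.0303). CDC25A thus differed in sign from CDC25B and CDC25C.

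Among E2F factors 0 of 5 measured members changed by limma, with E2F3 and E2F7 at an unadjusted p under 0.05. E2F1, an activator of replication genes, stood at 8.48, 8.33 and 8.57 with DMSO, at 8.48, 8.43 and 8.39 with simvastatin and at 8.35, 8.27 and 8.18 with mevalonate. Its DMSO and simvastatin arrays overlapped (interval of the change -0.18 to 0.13). E2F2 and E2F8 had changes of -0.01 ± 0.05 and -0.03 ± 0.04, E2F3 one of -0.15 ± 0.06 (adjusted p = 0.141). E2F7, an atypical repressor, ran from 7.75 to 8.02 with DMSO and from 7.59 to 7.69 with simvastatin (-0.23 ± 0.07, adjusted p = 0.0713). Of the dimer partners, TFDP2 rose and TFDP1 did not pass the test. TFDP2 stood at 8.22, 8.21 and 8.05 with DMSO, at 8.49, 8.50 and 8.56 with simvastatin and at 8.12, 8.19 and 8.11 with mevalonate. It was 1.28-fold higher with simvastatin (0.35 ± 0.06, adjusted p = 0.00406), with no overlap. TFDP1 differed by -0.04 ± 0.05.

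Of the pocket proteins that bind E2F, RB1 stood at 9.72, 9.76 and 9.78 with DMSO, at 9.76, 9.76 and 9.80 with simvastatin and at 9.76, 9.64 and 9.81 with mevalonate, and its groups overlapped (interval -0.10 to 0.13). RBL1, which encodes p107 of the DREAM complex, stood at 9.56, 9.51 and 9.56, then at 9.30, 9.43 and 9.30, then at 9.50, 9.52 and 9.48. It fell by 0.20 ± 0.05 (adjusted p = 0.0250). RBL1 no longer passed when DMSO replicate 1 (0.0769) or 3 (0.0803) or simvastatin replicate 1 (0.0712) or 3 (0.0745) was left out, with only the 6 arrays compared (0.0677), and with all probesets tested (0.0893). RBL2, the relative that dominates in resting cells, stood at 8.03, 7.96 and 8.04, then at 7.95, 7.94 and 7.86, then at 8.02, 8.07 and 8.14 (-0.09 ± 0.05, adjusted p = 0.288). CDKN2A, a locus of CDK4/6 inhibitors, lay below the median of all probesets on every array (4.69 to 5.01) with groups that overlapped, and a probeset of the antisense gene at the same locus, CDKN2A-AS1, did so on average as well (mean 5.04).

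The promoter windows of the G1/S members held E2F motifs in 6 of 15 cases (40%), against 3.33% of all windows, CCAAT in 5 of 15 (33.3%) and TTTGAA in 2 of 15 (13.3%). Printed here in the same way are the last 220 bases before the start of CCNE1, which rose, CDC25A, which differed in the same direction without passing the test, and RBL1, which fell.
CCNE1, chr19:29811771-29811990, plus strand: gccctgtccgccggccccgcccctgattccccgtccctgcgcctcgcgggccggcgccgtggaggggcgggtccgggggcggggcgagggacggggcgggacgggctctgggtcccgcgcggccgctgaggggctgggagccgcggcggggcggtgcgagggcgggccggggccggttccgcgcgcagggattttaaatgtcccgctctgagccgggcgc
CDC25A, chr3:48188418-48188637, minus strand: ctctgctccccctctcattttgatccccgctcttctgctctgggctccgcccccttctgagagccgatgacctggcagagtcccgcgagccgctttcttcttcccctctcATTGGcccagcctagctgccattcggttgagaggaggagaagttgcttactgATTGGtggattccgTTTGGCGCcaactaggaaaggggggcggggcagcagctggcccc
RBL1, chr20:37095998-37096217, minus strand: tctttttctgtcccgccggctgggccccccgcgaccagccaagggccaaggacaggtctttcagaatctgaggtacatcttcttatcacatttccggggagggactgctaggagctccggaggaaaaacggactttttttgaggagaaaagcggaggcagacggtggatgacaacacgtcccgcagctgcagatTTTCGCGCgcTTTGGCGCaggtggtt
RBL1 held E2F motifs 26 and 16 bases before the start, and CDC25A held 1 at 44 bases before it. In the CCNE1 window none of the letters searched for occurred.

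**Figure D2:**
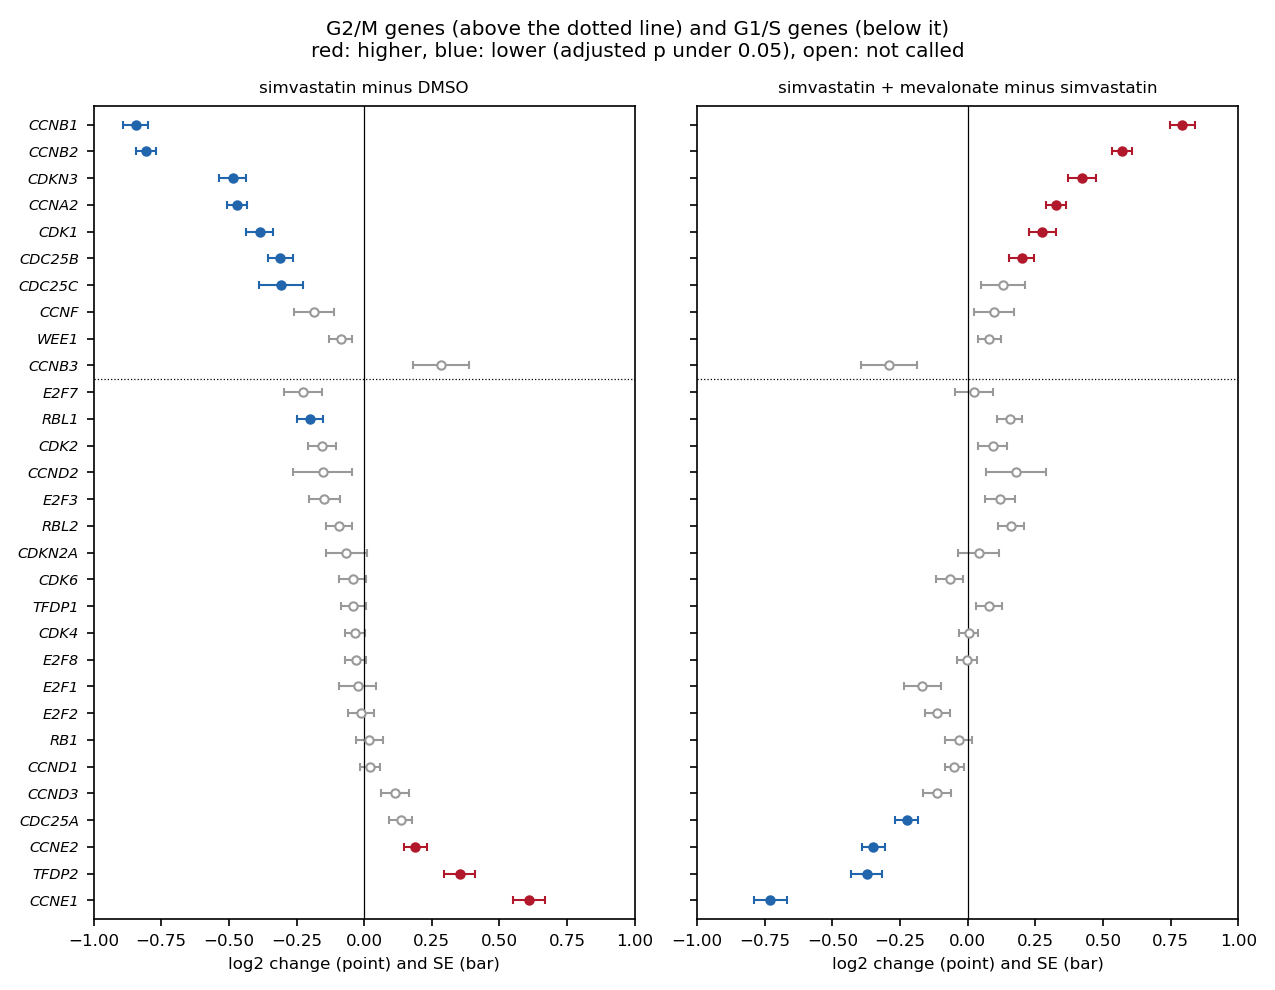
Log2 change (point) and limma standard error (bar) of the 10 G2/M and 20 G1/S genes for simvastatin against DMSO (left) and for simvastatin plus mevalonate against simvastatin (right); filled points passed adjusted p under 0.05. On the left 9 of the 10 G2/M genes lie below 0, down to -0.84 for CCNB1, and 7 of them are filled. CCNE1 lies highest at 0.61. Both panels use the same simvastatin arrays.

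Most of the 39 members outside the G1/S and G2/M lists did not pass the test. Of the 13 genes of the CDK-activating kinase and of the CDKs and cyclins that act on RNA polymerase or the Mediator complex, 2 fell and 0 rose. That is 15.4% of the role, near the 13.4% of all genes that changed. CDK19, a Mediator kinase, stood at 9.14, 9.17 and 9.16 with DMSO, at 8.78, 8.87 and 8.74 with simvastatin and at 8.99, 8.92 and 8.98 with mevalonate, 3 groups apart. It fell by 0.36 ± 0.05 (adjusted p = 0.00119). CCNT2, a partner of the elongation kinase CDK9, stood at 8.66, 8.59 and 8.62, then at 8.35, 8.41 and 8.44, then at 8.65, 8.62 and 8.64. It fell by 0.23 ± 0.04 (adjusted p = 0.00832), and its simvastatin arrays were the lowest of the 9. The other 11 genes of this role had changes between -0.16 (CDK8) and 0.14 (CDK7), 4 of them at an unadjusted p under 0.05.

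Among the 26 remaining cyclins, CDKs, CDK-like kinases and related symbols, 4 rose and 2 fell (23.1%, against 13.4% of all genes). CDK5, the kinase of postmitotic neurons, stood at 8.01, 7.86 and 7.92 with DMSO, at 7.47, 7.38 and 7.53 with simvastatin and at 7.72, 7.78 and 7.68 with mevalonate. The groups were apart, and the fall of 0.47 ± 0.06 (adjusted p = 0.00124) matched that of CCNA2 in size. CCNG2, an unconventional cyclin linked to growth arrest, stood at 6.37, 6.24 and 6.27, then at 6.08, 6.08 and 5.93, then at 5.97, 6.03 and 6.08. It fell by 0.26 ± 0.06 (adjusted p = 0.0239), and its simvastatin and mevalonate arrays overlapped. CCNG2 no longer passed when DMSO replicate 1 (0.0811) or 3 (0.0558) or simvastatin replicate 3 (0.0608) was left out, with only the 6 arrays compared (0.0597) and with all probesets tested (0.0744).

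Its relative CCNG1, a p53 target, moved the other way, with 8.29, 8.13 and 8.13 on the DMSO arrays, 8.37, 8.47 and 8.42 with simvastatin and 8.24, 8.32 and 8.23 with mevalonate. The rise of CCNG1 was 0.24 ± 0.06 (adjusted p = 0.0277). CCNG1 no longer passed when DMSO replicate 2 (0.0929) or 3 (0.0936) or simvastatin replicate 2 (0.0856) or 3 (0.0695) was left out, with only the 6 arrays compared (0.0645) and with all probesets tested (0.0870). CDK18, a PCTAIRE-family kinase, stood at 6.76, 6.77 and 6.67, then at 6.96, 7.03 and 6.93, then at 6.81, 6.79 and 6.73. It rose by 0.24 ± 0.05 (adjusted p = 0.0127), a call lost with all probesets tested (0.0514).

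The last 2 rises were those of dim genes. CDKL3, a CDK-like kinase, stood at 5.37, 5.27 and 5.33 with DMSO, at 5.86, 5.67 and 5.46 with simvastatin and at 5.51, 5.47 and 5.35 with mevalonate. Its rise of 0.34 ± 0.09 had an adjusted p of 0.0490 and no longer passed when any 1 array other than simvastatin replicate 3 was left out (0.0627 to 0.138), nor with quantile normalization (0.0567), median centring (0.0639), only the 6 arrays compared (0.107) or all probesets tested (0.117). CCNYL4, a transcribed pseudogene related to cyclin Y, lay below the median of all probesets on every array, at 3.27 to 3.47 with DMSO, 3.70 to 3.96 with simvastatin and 3.23 to 3.46 with mevalonate. It rose by 0.46 ± 0.09 (adjusted p = 0.0120) by 1 probeset, while its other probeset gave -0.05 ± 0.13, and with the mean of both the call was lost (0.185). The 20 members of this role that did not pass the test had differences between -0.32 (CDK15, adjusted p = 0.291) and 0.28 (CDKL2, adjusted p = 0.109).

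**Figure D3:**
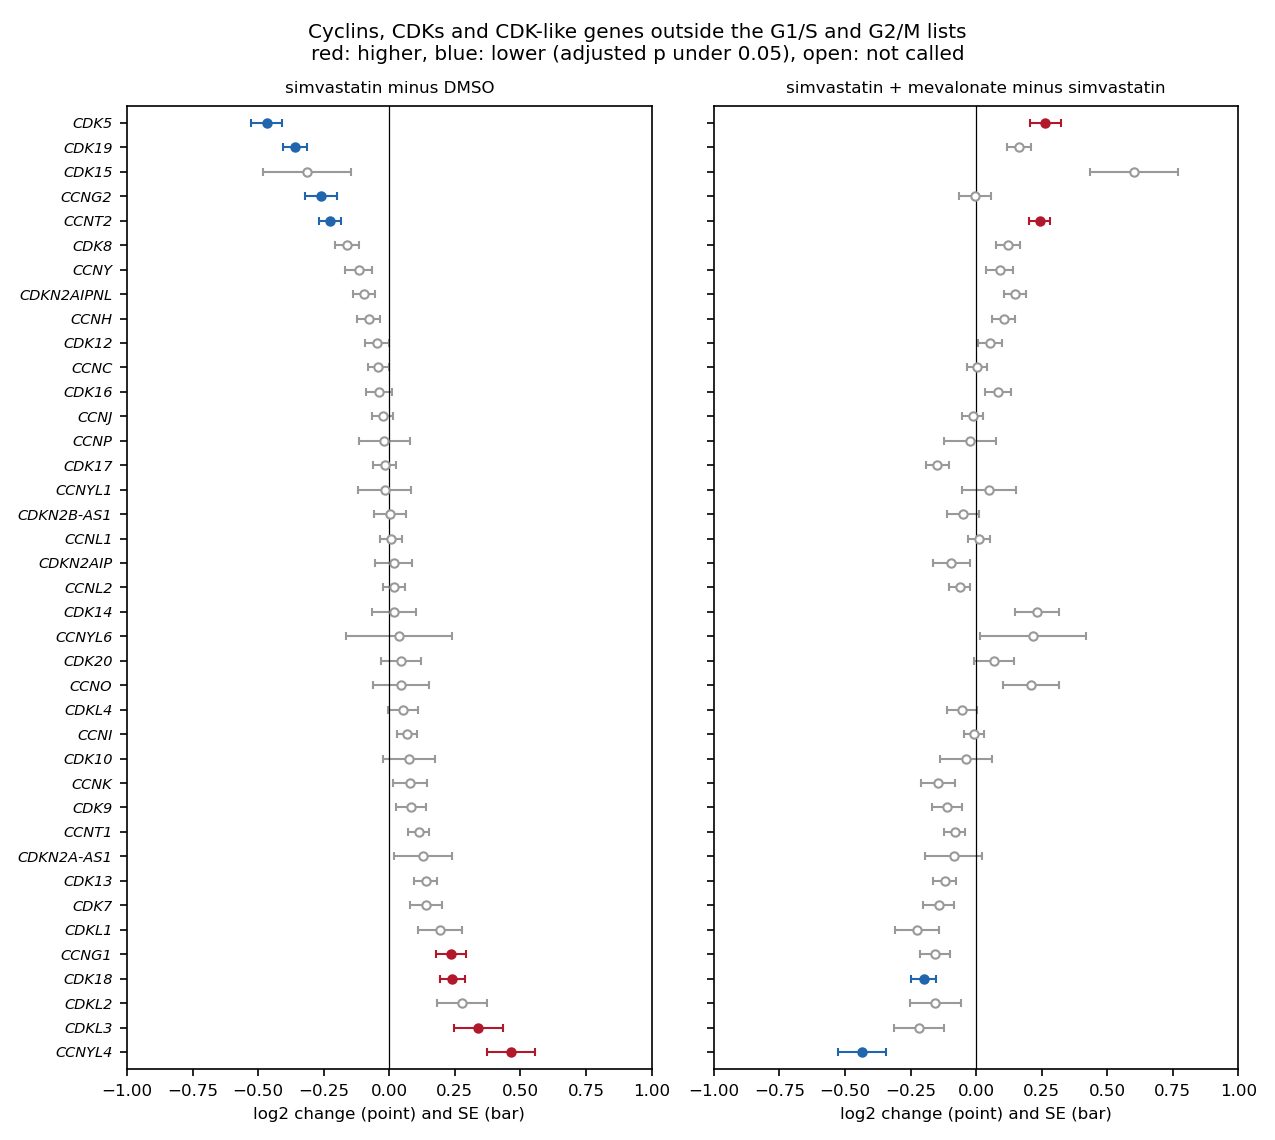
Log2 change (point) and limma standard error (bar) of the 39 members outside the G1/S and G2/M lists, for simvastatin against DMSO (left) and simvastatin plus mevalonate against simvastatin (right); filled points passed adjusted p under 0.05. On the left CDK5 (-0.47) and CDK19 (-0.36) lie lowest among the filled points, and most other members sit near 0; both panels use the same simvastatin arrays.

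Cells given mevalonate beside the drug were then set against cells given the drug only, to find the genes that differed once mevalonate was supplied. This comparison shares the simvastatin arrays with the first, so opposite signs in both are partly built in. Of the 69 members 14 changed (20.3%), 8 upward and 6 downward, against 11.0% of all genes, 5.31% upward and 5.72% downward. Of the G2/M members 6 of 10 rose and 0 fell (median 0.24). Of the 20 G1/S members 4 fell and 0 rose (median -0.02). The groups did not overlap in 34 of the 69 members, against 27.3% of all genes.

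The 6 G2/M genes that rose were CCNB1 (0.79 ± 0.05, 1.73-fold, adjusted p = 3.23e-05), CCNB2 (0.57 ± 0.04, 1.48-fold), CDKN3 (0.42 ± 0.05), CCNA2 (0.33 ± 0.04), CDK1 (0.27 ± 0.05) and CDC25B (0.20 ± 0.05). The call of CDC25B (adjusted p = 0.0260) was lost without any single simvastatin array (0.0564 to 0.0669) or mevalonate array (0.0615 to 0.0856) and with all probesets tested (0.0955). The other 4 adjusted p lay between 5.63e-05 for CCNB2 and 0.00902 for CDK1. CDC25C (0.13 ± 0.08, adjusted p = 0.376), CCNF, WEE1 and CCNB3 did not pass the test. CDK5 (0.26 ± 0.06, adjusted p = 0.0239) and CCNT2 (0.24 ± 0.04, adjusted p = 0.00704) also rose. The CDK5 call was lost without simvastatin replicate 1 (0.0556) or 2 (0.0707), without mevalonate replicate 1 (0.0693) or 2 (0.0827), and with all probesets tested (0.0775).

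The G1/S genes that fell were CCNE1 (-0.73 ± 0.06, 1.66-fold lower, adjusted p = 0.000171), TFDP2 (-0.37 ± 0.06, adjusted p = 0.00366), CCNE2 (-0.35 ± 0.04, adjusted p = 0.00123) and CDC25A (-0.23 ± 0.04, adjusted p = 0.0113). CDC25A lost its call with all probesets tested (0.0535). CCNE1 and CCNE2 encode the partners of CDK2 at the start of S phase, and all of their mevalonate arrays lay below all of their simvastatin arrays. CDK18 (-0.20 ± 0.05, adjusted p = 0.0329) and CCNYL4 (-0.43 ± 0.09, adjusted p = 0.0188) fell as well. The CDK18 call was lost without DMSO replicate 1 (0.0517), simvastatin replicate 1 (0.0656) or 2 (0.0956) or any mevalonate array (0.0663 to 0.110), with only the 6 arrays compared (0.0607) and with all probesets tested (0.110). That of CCNYL4 was lost without simvastatin replicate 3 (0.0523) or mevalonate replicate 1 (0.0623) and with all probesets tested (0.0551).

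E2F1 and E2F2, both activators of replication genes, were lower on all mevalonate arrays than on all simvastatin arrays without passing the test in this comparison (-0.17 ± 0.07, adjusted p = 0.184, and -0.11 ± 0.05, adjusted p = 0.188). RBL1 (0.16 ± 0.05, adjusted p = 0.0760) and RBL2 (0.16 ± 0.05, adjusted p = 0.0772) were higher, also short of the threshold, and both passed with only genes above the median of all probesets (0.0371 and 0.0381) and with eBayes trend and robust settings (0.0144 and 0.0320). CDK19 stood between its DMSO and simvastatin levels (0.16 ± 0.05, adjusted p = 0.0575) and passed with the same filter (0.0269), with the same eBayes settings (0.0113) and without simvastatin replicate 2 (0.0331). CDK15, a dim PFTAIRE-family kinase, had the largest difference short of the threshold (0.60 ± 0.17, adjusted p = 0.0563), and CCNG2 differed by -0.01 ± 0.06 (interval -0.14 to 0.13).

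Finally, simvastatin plus mevalonate was compared with DMSO, to see what remained. By limma 0 of 69 members changed, with 13 at an unadjusted p under 0.05, and 11 of all genes changed (0.0739%), 0.0336% upward and 0.0403% downward. All 10 G2/M members had values below 0 in this comparison (median -0.10, from -0.24 to -0.01), with groups that did not overlap in 5 of them, while 7396 of the 14884 genes were below 0. Of the 20 G1/S members 16 were below 0 as well (median -0.03), with groups that did not overlap in 4 of them. With eBayes trend and robust settings 4 members fell and 0 rose, CCNB2 (adjusted p = 0.00261), CCNA2 (0.0136), CDK19 (0.0247) and CCNE2 (0.0344). CCNB2 showed the smallest adjusted p of the family, at -0.24 ± 0.04 (adjusted p = 0.0638) with an interval of -0.32 to -0.15 and groups that did not overlap, and it fell with only genes above the median of all probesets (0.0204). CCNG2 (-0.27 ± 0.06, adjusted p = 0.159) and CDK5 (-0.20 ± 0.06, adjusted p = 0.275) also had mevalonate arrays below all DMSO arrays. For CCNB1 the interval ran from -0.16 to 0.05, for CCNE1 from -0.26 to 0.02 and for CCND1 from -0.11 to 0.06. The groups did not overlap in 18 of the 69 members, against 16.5% of all genes.

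The genes that act beside the members were read from 5 lists with 60 entries, of which 47 were measured. With simvastatin 23 of the 47 fell and 3 rose, where 7.38% of all genes fell and 5.98% rose. With mevalonate added 14 rose and 4 fell, where 5.31% of all genes rose and 5.72% fell. Of 8 mitotic kinases 7 fell with simvastatin and 0 rose. They included BUB1, a spindle checkpoint kinase (1.99-fold lower, adjusted p = 4.77e-06), PLK1, which activates CDC25 and cyclin B complexes (-0.84 ± 0.04), and AURKA, the spindle pole kinase (-0.69 ± 0.05). The same 7 rose with mevalonate. Against DMSO, all 8 mitotic kinases were still below 0 with mevalonate added (median -0.14), while 7396 of the 14884 genes were below 0. Their groups did not overlap in 7, against 16.5% of all genes. Of these 8 kinases 0 passed limma's test, 4 at an unadjusted p under 0.05. MASTL, which shields CDK1 substrates from dephosphorylation, differed by 0.08 ± 0.05 (adjusted p = 0.359).

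Of 7 measured regulators of the ubiquitin ligases SCF and APC/C and CKS proteins, 3 fell with simvastatin and 0 rose. CDC20, the mitotic activator of APC/C, fell by 0.83 ± 0.07, CKS2, a small subunit of CDK complexes, by 0.39 ± 0.04 and CKS1B by 0.16 ± 0.04 (adjusted p = 0.0322), while FZR1, the G1 activator of APC/C, differed by 0.02 ± 0.04. CDC20 (0.86 ± 0.07) and CKS2 (0.39 ± 0.04) rose with mevalonate. Of 8 genes of DREAM, MuvB, MYB and FOXM1 4 fell and 1 rose with simvastatin, against 7.38% and 5.98% of all genes. FOXM1, the activator of G2/M genes, fell by 0.24 ± 0.05 (adjusted p = 0.0179), and the MuvB subunits LIN9 and LIN52 by 0.21 ± 0.05 and 0.33 ± 0.07, whereas LIN37, another subunit, rose by 0.29 ± 0.06. RBBP4 fell by 0.15 ± 0.04 (adjusted p = 0.0431), and MYBL2 differed by -0.05 ± 0.04 (adjusted p = 0.586). With mevalonate added RBBP4 rose (0.16 ± 0.04, adjusted p = 0.0406) and LIN37 fell (-0.29 ± 0.06, adjusted p = 0.0156). FOXM1 (adjusted p = 0.0909), LIN9 (0.0973) and LIN52 (0.0601) did not pass limma's test in that comparison.

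Of 18 measured G1/S targets of E2F 6 fell and 1 rose with simvastatin (median -0.12), against 7.38% and 5.98% of all genes. Among helicase subunits MCM3 fell by 0.36 ± 0.04 and MCM2 by 0.33 ± 0.04, and CDT1, which loads that helicase, rose by 0.20 ± 0.05 (adjusted p = 0.0494). With mevalonate added 3 of the 18 rose, MCM2 (0.23 ± 0.04), MCM3 (0.25 ± 0.04) and MCM6 (0.18 ± 0.04). CDT1 (-0.25 ± 0.05, adjusted p = 0.0209) and SLBP (-0.20 ± 0.05, adjusted p = 0.045) fell. TYMS, UHRF1 and GINS2 had also fallen with simvastatin but did not pass the test with mevalonate added. Their differences were 0.02 ± 0.04, 0.09 ± 0.05 and 0.07 ± 0.07. Against DMSO, 17 of the 18 were below 0 with mevalonate added (median -0.10), with no overlap in 11, against 16.5% of all genes. Of these 18 genes 0 passed limma's test in that comparison, 7 at an unadjusted p under 0.05. Of the 6 remaining genes of CDK control 3 fell and 1 rose with simvastatin, among them CDK2AP1, which binds CDK2 (-0.42 ± 0.05), and CCNDBP1, a binding partner of D-type cyclins (0.40 ± 0.07).

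**Figure D4:**
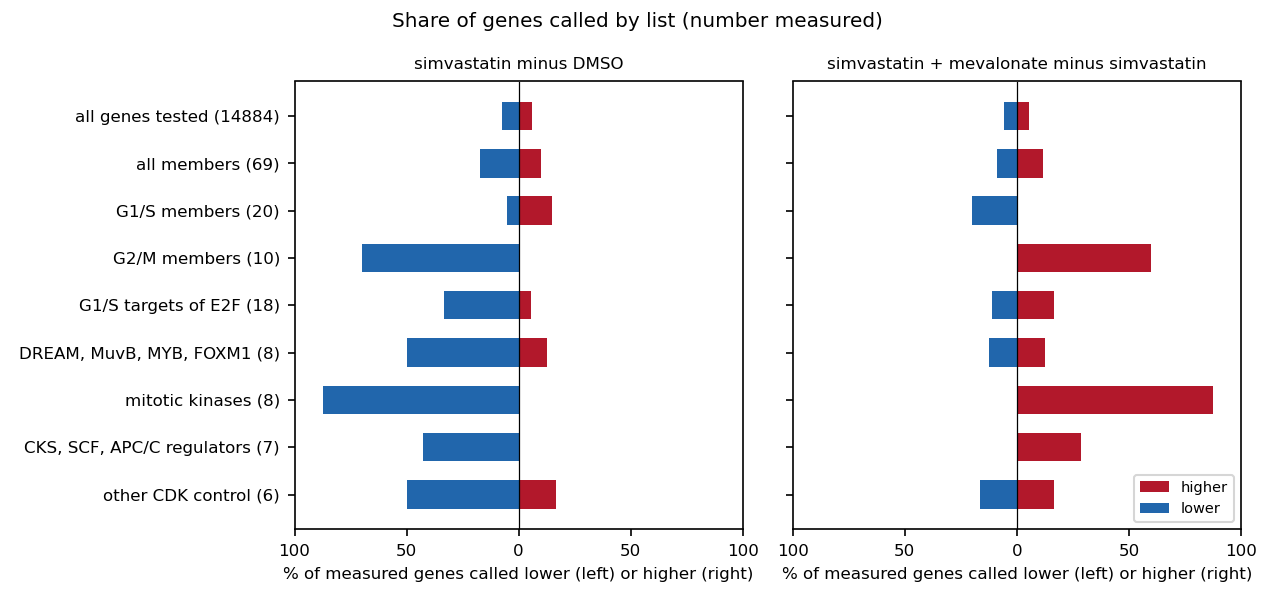
Share of measured genes called lower (blue, left of 0) or higher (red, right of 0) at adjusted p under 0.05, for all genes, the members by stage and 5 lists of neighbouring genes, with the number measured in parentheses. With simvastatin 7 of 10 G2/M members and 7 of 8 mitotic kinases were lower, against 7.38% of all genes; the right panel shares the simvastatin arrays.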

How the data were processed

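Values of 53617 probesets on 9 one-channel arrays were used as the authors deposited them, on a log2 scale read from their range (medians per array 5.17 to 5.21). GCRMA and HOMER are listed, with no version or role, per the submitters' processing notes. The order of steps and the genome build are not given in the sources used here. If arrays were scaled to each other, a shift shared by most genes would be removed. The labels name no batch. A single symbol was given for 16098 probesets (30.0%), several for 0 and none for 37519. All 69 members matched RefSeq by Entrez identifier. Some genes of these families are not analysed here.

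Comparisons used limma 3.58.1 under R 4.3.3 (functions lmFit and eBayes, 3 group means in 1 fit of 9 arrays, 6 residual degrees of freedom), with Benjamini-Hochberg adjustment over 14884 genes for each comparison. Errors are limma's standard errors, and 95% intervals use its moderated degrees of freedom. Members, gene lists and tests were chosen with earlier results of these data known. The genes given with all values were those changed in either comparison with simvastatin arrays and all measured members of 5 core roles, and E2F and TFDP genes were added after their values were seen. Same-numbered arrays did not deviate together (r from -0.081 to 0.050), so replicate numbers were not used as pairs. The procedure was tested on simulated data, in which fewer genes were changed than here. It called 27.6% of the genes given a log2 change of 0.25 and 70.4% of those given 0.5. A small change can thus be missed. The changed genes were drawn from all genes, whose median SD within groups was 0.093, against 0.056 for the members. The shares called may therefore not hold for the members. The number of arrays limits the precision.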

Additional observations from a re-analysis of the deposited data

How the results depend on the processing

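Each count was recomputed under 17 alternatives, 9 of which left out 1 array, and counts by stage were added after the values were seen. No member call reversed its direction. Of the 19 member calls for simvastatin against DMSO 11 held under every alternative, and of the 14 for mevalonate 9 did. Members that rose with simvastatin numbered 7 with the chosen settings, 3 with all probesets tested, 4 with only the 6 arrays compared and 11 with eBayes trend and robust settings. With mevalonate added, members that rose numbered 14 with those eBayes settings in place of 8, and members that fell 3 with all probesets tested in place of 6. For simvastatin plus mevalonate against DMSO, 11 genes changed with the chosen settings, 105 with only genes above the median and 223 with eBayes trend and robust settings. With only the 6 arrays compared 0 genes changed, and with all 53617 probesets tested 7 probesets did, with or without a symbol. In the same comparison 1 and 4 members fell with the filter and the eBayes settings. Leaving out 1 array gave 1461 to 1744 genes for simvastatin against DMSO (4 to 6 members up, 9 to 13 down), 1121 to 1482 with mevalonate added (6 to 9 up, 4 to 7 down) and 0 to 12 for the last comparison (0 members). G2/M members down numbered 6 to 7 and G1/S members up 2 to 3 with simvastatin, and with mevalonate G2/M members up 5 to 6 and G1/S members down 4. 

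With the replicate number as a block, 1576 genes changed with simvastatin (6 members up, 9 down), 1230 with mevalonate added (7 up, 5 down) and 0 between simvastatin plus mevalonate and DMSO. The block lost the simvastatin calls of CCNE2 (limma adjusted p = 0.0563), CCNG1 (0.0654), CCNG2 (0.0603), CDC25C (0.0858) and RBL1 (0.0613). It also lost the mevalonate calls of CDC25B (0.0744), CDK5 (0.0577) and CCNYL4 (0.0502).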
